A study of Mus musculus with 81 samples.

Results

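Convergent CDR3s were examined, that is, productive (in-frame) TCRβ CDR3 amino-acid sequences that 2 or more nucleotide rearrangements differing in at least 2 positions encoded within a single library of a mouse. The deposited amino-acid sequence of each rearrangement was taken, and the full sequenced stretch of 87 bases was compared between all rearrangements of the same CDR3. Members were thus selected on the nucleotide and amino-acid sequences measured in these same libraries. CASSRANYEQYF, the CDR3 of the transferred OT-1 cells, and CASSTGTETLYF, a leading CDR3 of many tumor libraries whose source was not determined, were left out of members, of all denominators and of the depth. Counted per library, 13031 of 354608 CDR3s were members (3.67%), and these were 9122 of the 236355 different amino-acid sequences in the 81 libraries. The numbers of members are therefore a description of the libraries and not a test.

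The CDR3 is the loop of the T-cell receptor β chain that meets peptide, and it is built in the thymus by joining a V, a D and a J segment, with nucleotides trimmed from the ends and non-templated N nucleotides added by terminal transferase. Because the genetic code is degenerate, different joins can give the same amino acids, which is called convergent recombination. Sequences close to the germline segments, with few N nucleotides, can be made in many ways and are known to recur between individuals (public clones), whereas selection by an antigen can enrich clones of different nucleotide origin that carry the same receptor. A variant of a single rearrangement, made when DNA is copied or read, would also meet the rule.

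All mice were female Pep Boy animals (B6.SJL-Ptprca Pepcb/BoyJ, CD45.1), and all of them received naive CD8+ OT-1 cells, whose transgenic receptor recognises the ovalbumin peptide on H-2Kb. In the treatment experiment, mice with subcutaneous EG7.OVA tumors (EL4 lymphoma cells that express ovalbumin) received 1e6 OT-1 cells and, on days 0 and 3, mouse red blood cells: 1e9 control red blood cells (mRBC-CTRL), or 2.5e8 or 1e9 cells carrying ovalbumin peptide on MHC class I with 4-1BBL and IL-12 (mRBC-OVA-4-1BBL-IL-12, below the 2.5e8 and 1e9 arms). Blood was taken on day 0 (5, 5 and 4 mice of the mRBC-CTRL, 2.5e8 and 1e9 arms) and day 7 (4, 5 and 5 mice), and tumors on day 7 (5 mice each). In the rechallenge experiment, 7 mice cured of EG7.OVA by the same loaded red blood cells (dose 2.5e8) and 1e6 OT-1 cells gave blood on days 65 and 73, around a second EG7.OVA challenge, and on days 126 and 136, around a challenge with EL4, which lacks ovalbumin. The 5 naive controls received 5e5 OT-1 cells and the same EG7.OVA challenge but no red blood cells, with blood on days 65 and 73. EL4 is itself a T-cell lymphoma, EG7.OVA derives from it, and whole tumor suspensions and whole blood were used, so no gate separates T cells of the host from other cells that hold a rearranged TCRβ gene.

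Productive templates ranged from 2355 to 77041 per library, and 482 to 23605 remained without the 2 CDR3s left out. The number of members in a library ranged from 11 to 946. Since a deeper draw from a library can only add members, libraries were compared at an equal depth of 1000 remaining templates, as the exact expected result of a random draw. The day 7 blood of 1e9 mouse 5 (482 templates) and the tumor of 1e9 mouse 2 (832) were too shallow and are absent from these values. Animals, not libraries or CDR3s, are the replicates in every comparison.

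Rearrangements of 3 convergent CDR3s show the kinds of difference the rule takes in. Each is printed 5′ to 3′ on the coding strand, with the CDR3 in capitals from its first cysteine codon, and with the V part before it in lower case. The reads end before the last codon, and no genome build is named for these files, so no coordinates are given. All lie in the rearranged TCRβ locus. In the tumor of mRBC-CTRL mouse 5, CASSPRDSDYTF (TCRBV12-01, TCRBJ01-02) was carried by 2 large rearrangements that differ at 2 positions, both within the CDR3, and share the V part.
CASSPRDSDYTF, 658 templates: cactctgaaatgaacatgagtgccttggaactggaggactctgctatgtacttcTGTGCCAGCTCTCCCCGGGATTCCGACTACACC
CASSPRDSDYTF, 359 templates: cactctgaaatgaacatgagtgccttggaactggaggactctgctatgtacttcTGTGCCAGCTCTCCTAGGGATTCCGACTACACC

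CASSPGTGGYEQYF was convergent in more mice than any other CDR3. In the blood of cured mouse 5 after EL4 it had 8 rearrangements of 2 or 3 templates each, on 6 V genes. The first and second differ at 23 positions, 4 of them in the CDR3, and the fifth and the first at 29, 3 of them in the CDR3.
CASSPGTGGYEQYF on TCRBV05-01: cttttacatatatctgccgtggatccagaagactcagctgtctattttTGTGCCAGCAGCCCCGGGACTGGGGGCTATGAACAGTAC
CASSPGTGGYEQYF on TCRBV12-02: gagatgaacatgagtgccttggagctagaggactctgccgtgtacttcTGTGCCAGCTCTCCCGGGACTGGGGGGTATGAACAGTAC
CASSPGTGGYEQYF on TCRBV14-01: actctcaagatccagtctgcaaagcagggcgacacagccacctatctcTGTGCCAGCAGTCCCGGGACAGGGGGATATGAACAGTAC

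The highest share of any convergent CDR3 in a tumor was held by a CDR3 of TCRBV19-01 and TCRBJ02-07 in 2.5e8 mouse 2, called its leading CDR3 from here on. In that tumor 1 rearrangement had 3250 of its 3270 templates, and the other 15 rearrangements had 1 or 2 templates each. All 16 had the same CDR3 bases. The second sequence below has the V part of TCRBV13-02, and the third that of TCRBV19-01 at 1 edit, which shifts the bases before it so that 19 positions differ.
Leading CDR3, 3250 templates: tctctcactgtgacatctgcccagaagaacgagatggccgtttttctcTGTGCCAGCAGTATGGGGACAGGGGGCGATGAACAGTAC
Leading CDR3, 2 templates, TCRBV13-02: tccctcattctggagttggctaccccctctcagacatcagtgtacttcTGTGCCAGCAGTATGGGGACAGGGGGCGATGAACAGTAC
Leading CDR3, 2 templates, TCRBV19-01: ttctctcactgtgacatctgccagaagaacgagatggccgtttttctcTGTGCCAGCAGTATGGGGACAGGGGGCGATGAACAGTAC

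Members were therefore sorted by how their rearrangements differ. In 5936 of the 13031 (45.6%), at least 1 pair differed at 2 or more positions within the CDR3, as in the first and second examples, and these are called codon-convergent below. Another 1309 (10.05%) had pairs that met the rule with 1 difference in the CDR3. The remaining members had the same CDR3 bases throughout: in 4059 (31.1%) the V parts were within 3 edits of each other, counting an inserted, deleted or changed base as 1 edit, and in 1727 (13.3%) a rearrangement carried a different V part. The threshold itself lay within a steep distribution, since of 28367 pairs of rearrangements of the same CDR3, 8621 differed at 1 position and fell outside, 1736 at 2 and 564 at 3, and 14729 differed at 12 or more.

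The make-up differed between blood and tumor. Pooled over all libraries, codon-convergent CDR3s were 48.3% of members in blood (5688 of 11767) and 19.6% in tumors (248 of 1264). The pooled blood includes cured and naive mice, which gave no tumor library. In day 7 blood they were 42.4%, 23.8% and 29.8% of members in the mRBC-CTRL, 2.5e8 and 1e9 arms. In tumors of the same arms they were 25.5%, 15.4% and 7.43%. CDR3s with the same bases on different V parts were 9.35% of members in pooled blood and 49.6% in tumors. In day 7 blood of the same arms they were 12.1%, 2.5% and 26.1%. These percents were not tested. In tumors the CDR3s with the same bases on different V parts held 28.2% of remaining templates on average. The lowest tumor had 4.67% and the highest 51.3%, against an average of 3.26% for codon-convergent CDR3s. In blood the corresponding averages were 1.13% and 3.23%. These shares are at full depth, which differs between the groups.

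**Figure D1:**
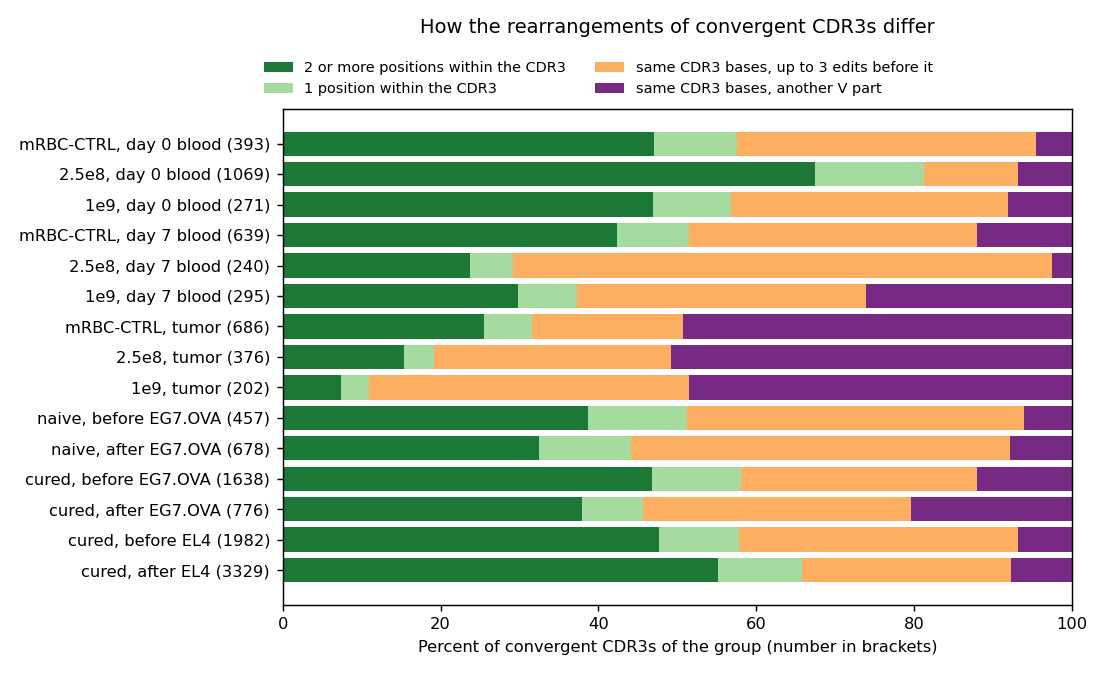
The bars give, for each of the 15 groups, the percent of its convergent CDR3s (number in brackets) of each kind: green, 2 or more CDR3 positions differ; light green, 1 position; orange, same CDR3 bases and V parts within 3 edits; purple, same CDR3 bases on another V part. Purple takes 48.5% to 50.8% in the 3 tumor groups, and orange 68.3% in day 7 blood of the 2.5e8 arm and 11.9% in its day 0 blood.

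A higher percent of CDR3s was convergent in tumors than in blood at equal depth under the rule. In the mRBC-CTRL arm, the percent of distinct CDR3s that were convergent in a draw of 1000 templates was 1.98, 1.43, 2.64, 1.93 and 1.66 in the tumors of mice 1 to 5. In the 2.5e8 arm it was 1.89, 3.70, 2.68, 3.92 and 2.31. In the 1e9 arm it was 4.36, 3.30, 2.61 and 3.15 in mice 1, 3, 4 and 5. The highest blood library, the day 7 blood of 2.5e8 mouse 5, was at 1.63, above 1 of the 14 tumors, and the next, the day 7 blood of 1e9 mouse 2, at 1.40 was below all of them. In the 12 mice with both libraries, tumor exceeded day 7 blood in 12 of 12, with means of 2.70 ± 0.940 and 1.05 ± 0.260 (SD), a difference of 1.65 ± 0.962 percentage points (SD, exact sign-flip test, p = 0.000488, adjusted over the 16 comparisons 0.00781). Without rearrangements of 1 template the difference was 0.471 (exact sign-flip test, adjusted p = 0.0938). The same draw held 7.5, 8.21 and 10.6 convergent CDR3s in tumors of the 3 arms and 5.47 to 9.44 in the blood groups, while distinct CDR3s numbered 388, 305 and 317 in tumors and 732 to 952 in blood, so the difference in percent went with fewer distinct CDR3s.

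Convergent CDR3s held 27.02% ± 9.43, 31.6% ± 15.6 and 29.4% ± 8.33 (SD, n = 5, 5 and 4) of the 1000 templates in tumors of the mRBC-CTRL, 2.5e8 and 1e9 arms. In blood the group means lay between 1.20% and 6.35%. Within mice, tumor exceeded day 7 blood by 23.9 ± 10.7 percentage points of templates (SD, 12 of 12 mice, exact sign-flip test, p = 0.000488, adjusted 0.00781). A large rearrangement enters this share with all its templates through a small variant. The smaller side had 2 or fewer templates in 99.9% of same-base pairs within 3 edits and 99.6% of those with another V part. In codon-convergent pairs this was 98.3%, so their share takes in large rearrangements in the same way. At full depth, codon-convergent CDR3s averaged 3.26% of templates in tumors (highest 16.1%) and 3.23% in all blood libraries (highest 10.2%). How far clone size accounts for the difference was not tested.

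The arms did not differ past the threshold. Tumor means were 1.93% ± 0.454 for mRBC-CTRL (n = 5), 2.90% ± 0.882 for 2.5e8 (n = 5) and 3.35% ± 0.733 for 1e9 (n = 4), and values of the arms overlapped. In tumors 1e9 lay 1.43 points above mRBC-CTRL, for which the exact permutation test gave p = 0.0238 (0.190 after adjustment). The 2.5e8 arm lay 0.972 above it, with p = 0.0714 (0.286 after adjustment) by that exact test. In day 7 blood the means were 0.909% ± 0.113 (n = 4), 1.22% ± 0.332 (n = 5) and 1.08% ± 0.235 (n = 4) in the same order, and the exact permutation test against mRBC-CTRL gave an adjusted p = 0.381 in each case. With these group sizes, neither 5 mice against 5 nor 4 against 5 can give an unadjusted p under 0.00794, and 4 against 4 none under 0.0286.

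Over time, no change in blood passed the threshold. The exact sign-flip test cannot give an unadjusted p under 0.25 for 3 mice, 0.125 for 4, 0.0625 for 5 or 0.0156 for 7. Changes in the treatment arms and in naive mice, with 3 to 5 mice each, therefore could not pass, and nothing is concluded from that. In the 2.5e8 arm the percent was higher on day 7 than on day 0 in 5 of 5 mice, going from 0.582 ± 0.196 to 1.22 ± 0.332 (SD), by 0.633 ± 0.351, and the exact sign-flip test gave p = 0.0625 (adjusted 0.286), the smallest that 5 mice allow. The mRBC-CTRL arm changed by 0.171 ± 0.167 in 4 mice and the 1e9 arm by 0.306 ± 0.301 in 3 mice. The change in the 2.5e8 arm exceeded that in the mRBC-CTRL arm by 0.462 (exact permutation test, p = 0.0317, adjusted over 5 such contrasts 0.143). Around EG7.OVA the percent went from 0.715 ± 0.140 to 0.840 ± 0.260 in 7 cured mice (higher in 4 of 7), and the mean change of 0.126 was 0.000265 without cured mouse 7. In 5 naive mice it went from 0.810 ± 0.134 to 0.966 ± 0.156 (higher in 3 of 5). Around EL4 it went from 0.730 ± 0.0663 to 0.672 ± 0.0680 in the cured mice (lower in 5 of 7). Adjusted p for these 3 by the exact sign-flip test were 0.533, 0.381 and 0.381.

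Codon-convergent CDR3s gave another picture. When 2 differing positions were required within the CDR3, the tumors of mRBC-CTRL mice held 0.447% ± 0.162 (n = 5) of distinct CDR3s in a draw of 1000 templates, those of the 2.5e8 arm 0.331% ± 0.248 (n = 5) and those of the 1e9 arm 0.334% ± 0.290 (n = 4). Group means in blood lay between 0.304% and 0.385%. Tumor minus day 7 blood was 0.0590 ± 0.201 percentage points (SD, higher in 8 of 12 mice, exact sign-flip test, p = 0.324), against 1.65 under the rule. All 16 comparisons had an adjusted p of 1 on this measure, and unadjusted p from 0.167 to 1 by the exact permutation and sign-flip tests. The tumor values rest on few CDR3s, with 1.02 to 1.73 expected per draw against 2.36 to 3.57 in blood, and they ranged from 0.0593% to 0.727%, wider than blood. In the 2.5e8 arm, where the percent under the rule was higher on day 7 in each mouse, the codon-convergent percent was 0.371 ± 0.0741 on day 0 and 0.304 ± 0.0934 on day 7.

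**Figure D2:**
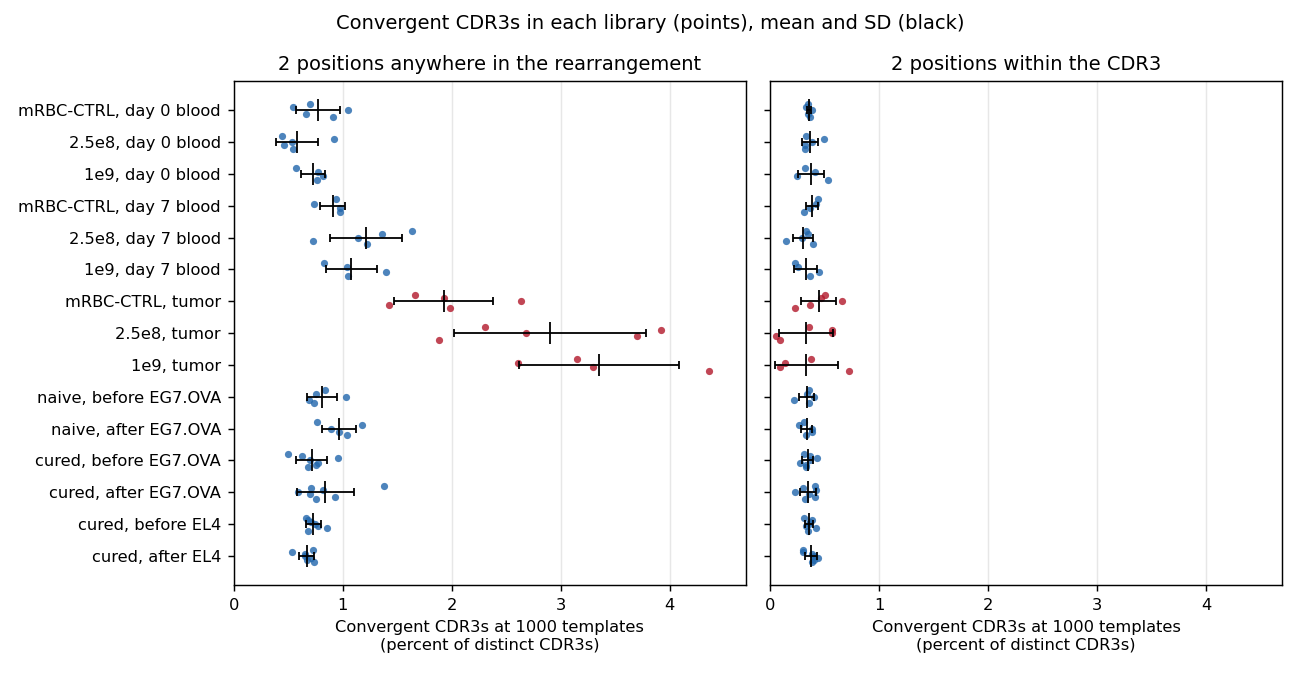
Each point is a library, placed by the percent of distinct CDR3s that were convergent in a draw of 1000 templates (blue, blood; red, tumor), with the group mean and SD in black. On the left 2 positions differ anywhere in the rearrangement and the 14 tumors reach 1.43 to 4.36; on the right the 2 positions lie within the CDR3 and group means run from 0.304 to 0.447.

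Counted as pairs of rearrangements per 1e6 possible pairs, a measure that needs no draw, codon convergence had group means of 6.24 to 7.40 in blood, except for 12.1 ± 7.99 (SD, n = 5) in day 7 blood of the 1e9 arm, where the library of 482 templates gave 24.7 from 1 pair. The values were 9.78 ± 2.33, 17.5 ± 12.7 and 17.2 ± 17.2 (SD, n = 5 each) in tumors of the mRBC-CTRL, 2.5e8 and 1e9 arms, and the tumor of 1e9 mouse 2 held no such pair. Tumor minus day 7 blood was 6.25 ± 14.2 in 14 mice (higher in 12 of 14, sign-flip permutation test, p = 0.130). The tumor of 1e9 mouse 1 gave 44.1 from 13 pairs and that of 2.5e8 mouse 4 38.7 from 3 pairs, the highest of the series.

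OT-1 cells carry a single transgenic TCRβ rearrangement and give a reference for variants of 1 sequence. In 47 blood and 15 tumor libraries with 200 or more templates of the main OT-1 rearrangement, every library also held other rearrangements with the same CDR3 bases, at a median of 6.77 per 1000 templates in blood (2.84 to 20.4) and 3.36 in tumors (1.62 to 13.9). Summed, these were 255 with V parts within 3 edits and 260 with another V part in blood, and 154 and 208 in tumors. For other rearrangements of 200 or more templates, the corresponding medians were 9.84 per 1000 (13 in blood, 3.65 to 31.8) and 6.32 (79 in tumors, 0 to 27.6). At least 1 was found for 13 of 13 in blood and 72 of 79 in tumors. These medians were not matched for size. The other rearrangements had 209 to 383 templates in blood and 204 to 4447 in tumors, and OT-1 205 to 8607 and 576 to 20346. Codon differences were rare beside OT-1: rearrangements of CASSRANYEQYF at 2 or more CDR3 positions from the main 1 numbered 2 in blood and 0 in tumors. Beside the other rearrangements of 200 or more templates, they numbered 3 in blood and 10 in tumors. Tumors had 72 members with a rearrangement of 200 or more templates (5.70% of 1264) and blood 13 (0.110% of 11767). How far variants of single rearrangements account for the members with the same CDR3 bases was not tested.

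**Figure D3:**
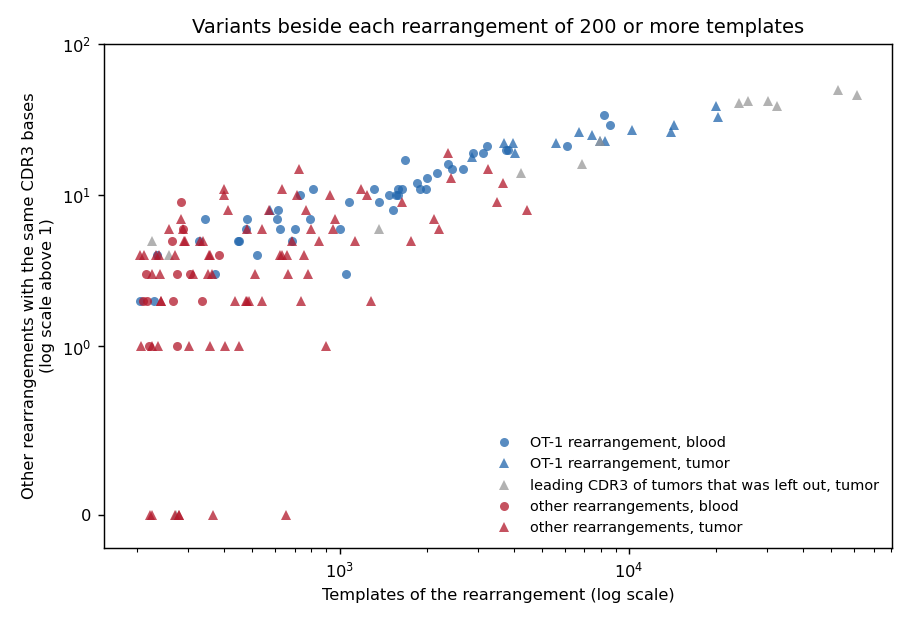
Each point is a rearrangement of 200 or more templates in a library (log scale), with the number of other rearrangements that share its CDR3 bases (log scale above 1): blue, OT-1; grey, the CDR3 of tumors that was left out; red, all others; circles, blood; triangles, tumors. The 3 kinds overlap over the range of templates they share, and 72 of the 79 red triangles lie above 0.

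Members carried fewer N nucleotides than the rest of their library. Per mouse, member rearrangements had 2.82 ± 0.231 N nucleotides and the others 3.51, a difference of -0.697 ± 0.233 (SD over 27 mice, lower in 26), and 14.1% against 8.35% of rearrangements had none. Members were also shorter, at 13.55 against 13.95 amino acids (lower in 27 of 27 mice). They were less often seen with a single template, at 66.0% against 70.3% of rearrangements. CDR3s of members were found in another mouse more often, at 69.8% ± 4.44 against 44.8% (higher in 27 of 27). All 5 differences had p = 1e-05 by the sign-flip permutation test over mice, the smallest that 100000 resamples can give, and adjusted p = 1e-05. In tumor libraries alone, the shares without N nucleotides and with 1 template differed by 0.308 and -0.870 percentage points (sign-flip permutation test, adjusted p = 0.786 and 0.611). A member with many variants of 1 rearrangement enters several times, and a variant on another V part can be given another number of N nucleotides. Of pairs with the same CDR3 bases and another V part, 62.4% had the same number of N nucleotides.

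Codon-convergent CDR3s differed from the rest in the same directions in N nucleotides and sharing, and the sizes of the differences were not tested against those of all members. Their rearrangements had 2.14 ± 0.333 N nucleotides against 3.49 (-1.35 ± 0.307, lower in 27 of 27 mice), 19.4% against 8.43% had none, and 95.3% ± 2.63 of the CDR3s were found in another mouse against 45.1%. These 3 also had p = 1e-05 by the permutation test. The limit given for all members, that the measures are not independent of the selection, holds here and within tumors too. Within tumors alone, codon-convergent rearrangements had 2.53 ± 0.867 N nucleotides against 3.63 (lower in 13 of 14 mice, sign-flip permutation test, p = 0.00134, adjusted 0.00273), and 96.2% of their CDR3s were found in another mouse. Counted over the series, 3259 of 3541 codon-convergent sequences (92.0%) were present in 2 or more mice, as were 2548 of the 5581 other members (45.7%) and 38070 of the 227233 CDR3s that were never members (16.8%). Presence in another mouse rises with abundance and with the number of libraries a CDR3 is in, and neither was held equal in these counts.

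Member rearrangements in tumors had more N nucleotides than those in day 7 blood of the same mice, 3.42 ± 0.271 against 2.83 ± 0.367, a difference of 0.591 ± 0.447 (SD, higher in 12 of 14 mice, sign-flip permutation test, p = 0.00110). For codon-convergent CDR3s the means were 2.56 ± 0.893 and 2.09 ± 0.234 (higher in 9 of 13 mice, sign-flip permutation test, p = 0.0969). CDR3s with the same bases on another V part were 49.6% of members in tumors and 9.35% in pooled blood, and their N count can change with the V part. Rearrangements that were not codon-convergent had 3.63 N nucleotides in tumors (14 mice) and 3.46 in all blood (27 mice). How far these account for the difference between tumor and blood was not tested.

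V gene use of members differed from the other rearrangements for 16 of the 20 V genes tested (80%), 5 higher and 11 lower. Members were selected on sequences that include V and J gene bases, so gene use is not independent of the rule. The tests of V and J genes describe the members selected and cannot separate gene use from that selection. A rearrangement with several variants is also counted several times. TCRBV13-02 took 23.6% of member rearrangements against 10.5% of the others, a difference of 13.1 ± 3.79 percentage points (SD, higher in 27 of 27 mice), and TCRBV12-01 9.57% against 4.74% (25 of 27). TCRBV12-02 stood at 7.41% against 3.08%, TCRBV16-01 at 7.93% against 5.29% and TCRBV29-01 at 5.06% against 3.38%. TCRBV01-01 (0.961% against 5.91%) and TCRBV31-01 (0.993% against 5.76%) were among the 11 that were lower, each in 27 of 27 mice. The other 9 lower V genes were TCRBV02-01, TCRBV04-01, TCRBV05-01, TCRBV13-01, TCRBV17-01, TCRBV19-01, TCRBV20-01, TCRBV24-01 and TCRBV26-01, with differences from -3.15 to -0.632. Adjusted p was 1.54e-05 for every V gene given with its levels here (sign-flip permutation test over 27 mice).

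For codon-convergent CDR3s 14 of the 20 V genes were called (70%), 7 higher and 7 lower. TCRBV13-02 was lower there, at 4.23% against 11.6% (-7.32 ± 2.30, lower in 27 of 27 mice), and TCRBV03-01 was higher, at 13.6% against 7.55% (25 of 27). TCRBV12-01 (11.2% against 4.99%) and TCRBV12-02 (8.83% against 3.37%) remained higher, and TCRBV01-01 and TCRBV31-01 lower, all with adjusted p = 1.82e-05 by the sign-flip permutation test. Of the 16 V genes called under the rule, 9 were called in the same direction for codon-convergent CDR3s and 3 pointed the other way. Restricting the rule to pairs of 1 V gene gave 18 of 20 V genes (90%) and 13 of 14 J genes (92.9%), and leaving out rearrangements of 1 template 13 of 20 (65%). With pairs of 1 V gene, TCRBV12-01 and TCRBV12-02 differed by -1.76 and -2.19 percentage points, lower in members, and without rearrangements of 1 template TCRBV13-02 differed by -5.28. TCRBV13-02 also took 2752 of the 5571 pairs with the same CDR3 bases and a single V gene within 3 edits, 49.4% of them, and 65.2 per 1000 of its rearrangements, where TCRBV29-01, the next of the V genes tested, had 27.5. Of all 5660 pairs with the same CDR3 bases within 3 edits, 98.4% had the same V gene, 71.7% were 1 edit apart and 85.5% differed at more than 3 positions, as the last of the sequences printed above does. In codon-convergent pairs 16.8% had the same V gene and 99.1% the same J gene, with TCRBV03-01 and TCRBV12-01 together in 5.23% of the 7149 pairs of 2 named V genes.

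Among J genes, 12 of 14 tested differed (85.7%), 3 higher and 9 lower. TCRBJ02-07 took 36.4% of member rearrangements against 18.1% of the others (18.3 ± 3.42 percentage points, higher in 27 of 27 mice, adjusted p = 1.75e-05 by the sign-flip permutation test). For codon-convergent CDR3s, where 9 of 14 J genes were called (64.3%), it was also higher, at 30.1% against 19.2% (25 of 27, permutation test, adjusted p = 4.67e-05). TCRBJ01-02 and TCRBJ01-03 were higher by 1.64 and 1.74 points under the rule, with -2.04 and -2.99 when rearrangements of 1 template were left out (8 of 14 J genes called, 57.1%). TCRBJ01-01 fell from 11.1% of the others to 5.94% of members under the rule, and stood at 11.3% against 10.7% for codon-convergent CDR3s (permutation test, adjusted p = 0.615). TCRBJ01-06, TCRBJ02-01, TCRBJ02-02, TCRBJ02-03, TCRBJ02-04 and TCRBJ02-05 were lower by 1.83 to 4.53 points. TCRBJ01-07 and TCRBJ02-06, at 0.00712% and 0.0120% of the other rearrangements, were not seen in members.

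**Figure D4:**
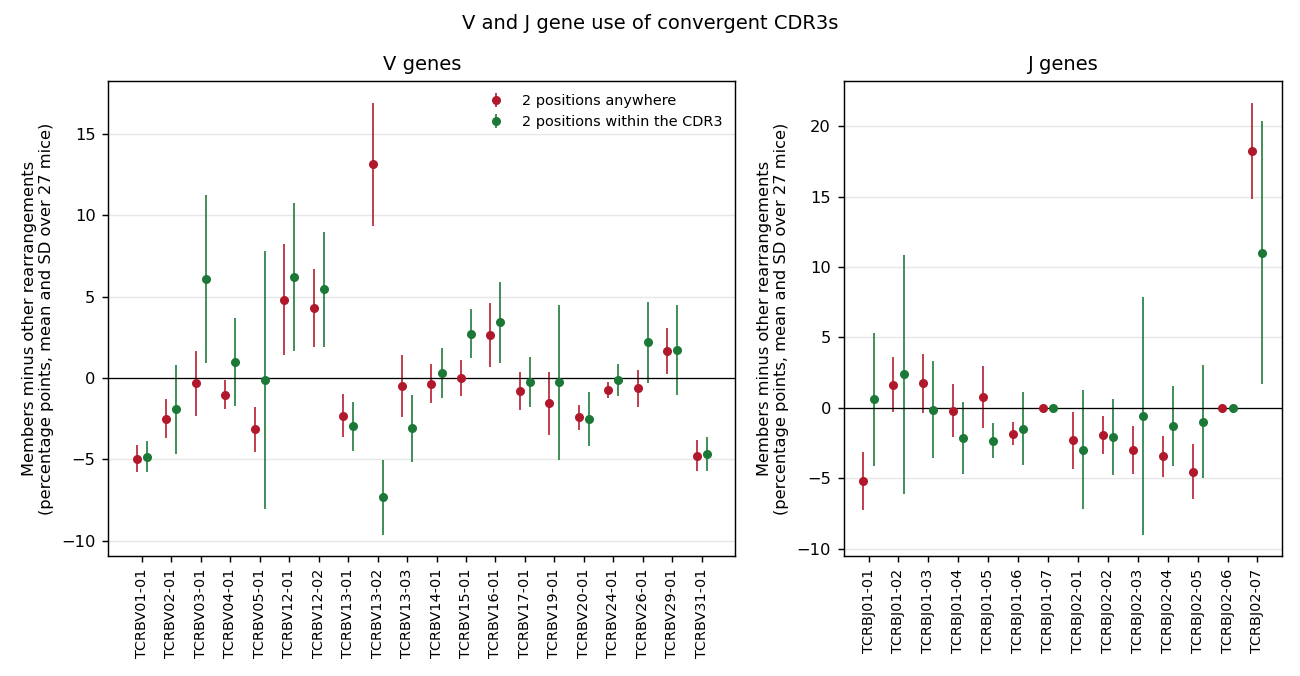
Difference in the percent of rearrangements that use each V and J gene, members minus the others of the same library, as mean and SD over 27 mice (red, 2 positions anywhere; green, 2 positions within the CDR3). TCRBV13-02 lies at 13.1 in red and -7.32 in green, TCRBJ02-07 at 18.3 and 11.0.

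Most members were convergent in a single mouse (7631 of 9122, 83.7%), and 43 were convergent in 10 or more. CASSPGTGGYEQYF was convergent in 20 mice and 36 libraries and present in 25 mice. Over the 53 libraries that held it, it was written with 55 different CDR3 nucleotide sequences, at 0.00923% to 0.551% of remaining templates. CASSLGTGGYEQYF (18 mice) and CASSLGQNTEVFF (18) followed, with 57 and 48 versions. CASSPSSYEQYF (17 mice, 27 versions) and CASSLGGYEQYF (17 mice, 47 versions) were the next. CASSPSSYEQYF reached 2.86% in the tumor of 2.5e8 mouse 4, with 70 of 74 templates in 1 rearrangement. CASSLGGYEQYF reached 0.699% in the tumor of 2.5e8 mouse 5, with 42 of 47.

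In the convergent CDR3s of highest share in tumors and in treatment and cured blood, 1 rearrangement held nearly all templates. The leading CDR3 of 2.5e8 mouse 2 held 36.5% of remaining templates in its tumor, 6.90% in its day 7 blood and 0.119% in its day 0 blood, with 336 of 338 and 22 of 22 blood templates in 1 rearrangement. It was also convergent in 1e9 mouse 5, at 3.59% of the tumor, and the nucleotides of the main rearrangement of 2.5e8 mouse 2 were found in no other mouse. In treatment blood the highest was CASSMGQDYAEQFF at 13.9% (67 of 482 templates) in day 7 blood of 1e9 mouse 5, with 66 in 1 rearrangement, and at 29.4% in its tumor, with 1131 of 1137. In cured mice it was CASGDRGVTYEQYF of mouse 5, at 0.369%, 5.89%, 0.913% and 0.841% on days 65, 73, 126 and 136, always with 1 CDR3 nucleotide version, and 283 of 295 templates on day 73 were in 1 rearrangement. In naive mice it was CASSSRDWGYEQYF at 0.203% in mouse 4 before EG7.OVA, with 6 and 2 templates on rearrangements 5 CDR3 positions apart. The largest number of rearrangements was 21, for a CDR3 of 15 amino acids on TCRBV04-01 and TCRBJ02-07 in the tumor of mRBC-CTRL mouse 3, 2378 of whose 2404 templates were in 1 of them.

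Codon-convergent CDR3s were mostly small on both sides. In 5800 of 5936 (97.7%), the smaller rearrangement of the best pair had 2 or fewer templates, and in 3328 (56.1%) every rearrangement had 1. CDR3s with 2 rearrangements of 5 or more templates each, at least 2 CDR3 positions apart, numbered 14 (12 different sequences): 13 in tumors, of 248 codon-convergent CDR3s, and 1 in blood, of 5688. Of the 13, 11 were in tumors of 4 mRBC-CTRL mice, which had 11484 to 23605 remaining templates, 1 in a 2.5e8 tumor and 1 in a 1e9 tumor, where tumors had 2589 to 13790 and 832 to 4241. No library of cured or naive mice held any, although blood after EL4 reached 22115 templates. These counts were not brought to equal depth and were not tested.

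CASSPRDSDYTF of mRBC-CTRL mouse 5 was the largest of them. Its 2 rearrangements had 658 and 359 templates in the tumor (5.57% and 3.04%) and 41 and 34 in day 7 blood (0.820% and 0.680%), and day 0 blood held none of either. Both were on TCRBV12-01 and TCRBJ01-02 with 4 N nucleotides. The same amino acids held 1.43% of templates in the tumor of mRBC-CTRL mouse 1, where 232 of 238 templates were in 1 rearrangement. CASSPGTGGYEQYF followed with 79 and 49 templates in the tumor of mRBC-CTRL mouse 3, on TCRBV12-01 and TCRBV04-01. A CDR3 of 15 amino acids in the tumor of 2.5e8 mouse 3 had 312 and 44, on TCRBV04-01 and TCRBV12-02. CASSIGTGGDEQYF (48 and 22, mRBC-CTRL mouse 3), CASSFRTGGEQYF (66 and 14, mRBC-CTRL mouse 4) and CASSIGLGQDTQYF (33 and 13, mRBC-CTRL mouse 4) came next by the smaller rearrangement among sequences of 14 or fewer amino acids, chosen after their values were seen. That length cut leaves out a CDR3 of 15 amino acids on TCRBV01-01 and TCRBJ02-03. It had 22 and 20 templates in the tumor of mRBC-CTRL mouse 2, and 6 and 5 in that of mRBC-CTRL mouse 4. No other of the 12 sequences had such a pair in more than 1 mouse. Of the 12 sequences, 8 had both rearrangements on the same V gene, all were present in 3 to 25 mice, and their rearrangements had 0 to 5 N nucleotides, 2.08 on average.

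**Figure D5:**
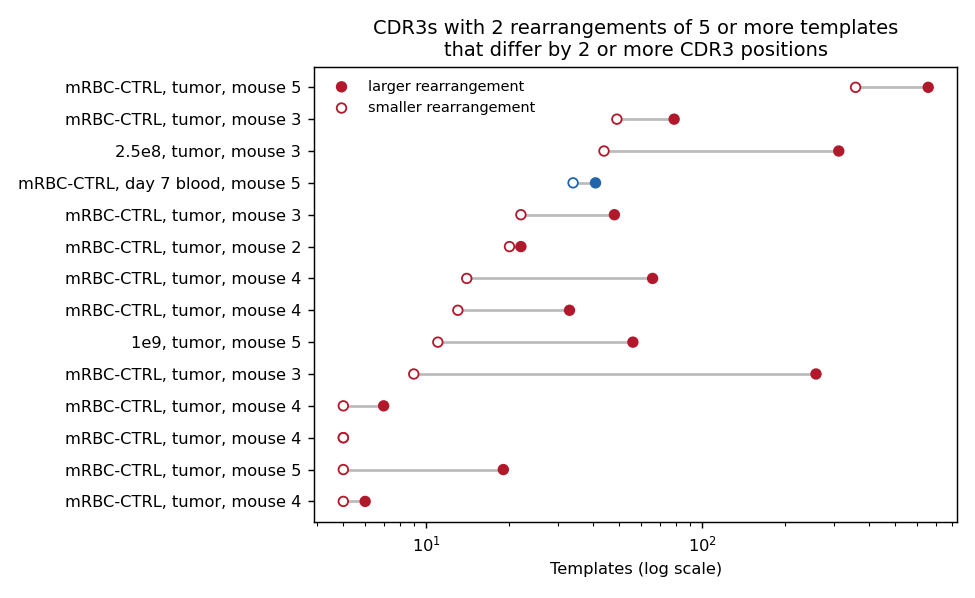
Templates (log scale) of the larger (filled) and smaller (open) rearrangement of each of the 14 CDR3s with 2 rearrangements of 5 or more templates at least 2 CDR3 positions apart (red, tumor; blue, blood). The topmost is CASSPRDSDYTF in the tumor of mRBC-CTRL mouse 5 with 658 and 359, and the blue one the same CDR3 in that mouse's day 7 blood with 41 and 34.

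Changes of members between the libraries of 1 mouse were tested with Fisher's exact test and Benjamini-Hochberg adjustment, over all CDR3s with 5 or more templates in both together. A call compares those 2 libraries, and being convergent needs templates in a library, so the counts are given beside all CDR3s tested and nothing is read from them alone. Over all pairs of libraries, 560 of 2416 members tested changed (23.2%), and 23.2% of all 5549 CDR3s did. Codon-convergent members changed in 164 of 1382 cases (11.9%). Between day 0 and day 7 blood, 16 of 136 members changed in the mRBC-CTRL arm (14.7% of all tested), 41 of 210 in the 2.5e8 arm (32.1% of all), 40 of them upward as were 129 of the 130 changes over all CDR3s, and 40 of 94 in the 1e9 arm (49.2% of all). From day 7 blood to tumor, 211 of 336 members changed in the mRBC-CTRL arm (35.9% of all), 104 of 219 in the 2.5e8 arm (27% of all) and 73 of 143 in the 1e9 arm (43.8% of all). Members tested there held 111, 128 and 79.7 templates on average against 13.6, 15.98 and 16.2 for the others, and more templates give more calls. From blood to tumor, 20 of 124 codon-convergent members tested went up and 48 down in the mRBC-CTRL arm, where all CDR3s went 347 up and 80 down. In the 2.5e8 arm 10 of 43 went up and 11 down, against 194 and 42 over all CDR3s. In the 1e9 arm 7 of 28 went up and 1 down, against 163 and 40. The difference in direction was not tested.

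Changes around the challenges are given in the same way, beside those of all CDR3s tested. In naive mice 2 of 118 members changed around EG7.OVA (2.94% of all tested). In cured mice 35 of 338 did (10.4% of all), 31 of them upward, as were 58 of the 62 changes over all CDR3s. Around EL4, 38 of 822 members changed in cured mice (4.84% of all), 13 up and 25 down, against 23 up and 40 down over all CDR3s. Of 597 codon-convergent members tested around EL4, 2 went up and 16 down. Among codon-convergent CDR3s called as changed, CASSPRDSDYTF of mRBC-CTRL mouse 5 had 0 templates on day 0, 76 in day 7 blood and 1026 in tumor (1.52% and 8.68%). It was named for its templates in that tumor, and in this mouse it was a member only through day 7 blood and tumor. Fisher's exact test on it therefore cannot decide whether it rose, and nothing is concluded from it. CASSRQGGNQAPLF of 2.5e8 mouse 4 had 0 templates on day 0, 271 in day 7 blood and 759 in tumor (9.22% and 29.3%). A single TCRBV17-01 rearrangement held 266 of the 271 and 755 of the 759. In the tumor no other rearrangement differed from it within the CDR3, so this CDR3 was codon-convergent only in day 7 blood. It too was a member only through libraries where it was high, so the test cannot decide whether it rose.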

How the data were processed

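TCRβ rearrangements were sequenced from genomic DNA of blood and tumors with a bias-controlled multiplex PCR assay, and the vendor collapsed and filtered the sequences before deposit. The deposited counts are templates per 87-base rearrangement, and they equalled the deposited estimate of genomes in 81 of 81 libraries. The deposited fraction of each rearrangement equalled its count divided by the library's sum in 81 of 81 libraries and was not used in a result. The aligner, its parameters and the genome build are not given in the sources used here.

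Productive rearrangements other than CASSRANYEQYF and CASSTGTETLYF were kept, leaving 482 to 23605 templates per library. A CDR3 was a member if 2 of its rearrangements in a library differed at 2 or more positions. The members, lists and tests were chosen with earlier results of these data known. The expected percent of convergent CDR3s in a random draw of 1000 templates was computed exactly from the hypergeometric distribution, without the 2 libraries below that depth. A library with fewer templates gives a less precise value, and the spread between mice includes this counting error.

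Groups were compared with two-sided exact permutation tests and libraries of 1 mouse with two-sided exact sign-flip tests, with Benjamini-Hochberg adjustment over 16 comparisons. Members were compared with the other rearrangements by sign-flip permutation tests of 100000 resamples over 27 mice, for V genes that took at least 1% of rearrangements. Mouse identity in the labels paired the libraries within mice. The library after EG7.OVA used for cured mouse 2 is called mouse 1 in the words of its label and 2 in its code, and the code was followed. Without mouse 2 the change of cured mice around EG7.OVA was 0.117 in place of 0.126 percentage points, and around EL4 -0.0382 in place of -0.0588. Fisher's exact test within a mouse took CDR3s with 5 or more templates over both libraries. Alternatives were depths of 500 and 2000 templates, 3 differing positions, positions within the CDR3, merging of rearrangements within 2 positions of a 10 times larger one, no rearrangements of 1 template, the percent of templates, and leaving out each mouse. CDR3s were named as the 5 convergent in most mice, those of highest share in tumors, treated, cured and naive blood, the 1 with most rearrangements, and the 3 with the most templates in the smaller of 2 codon-convergent rearrangements of 5 or more templates. V and J genes past the adjusted threshold of 0.05 were also named. Steps were tested on simulated data and run with Python 3.11.15, numpy 2.4.6, pandas 2.3.3, SciPy 1.17.1, edlib 1.3.9.post1 and matplotlib 3.10.9.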

Additional observations from a re-analysis of the deposited data

Results flagged for a closer look

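The percent of distinct CDR3s that were convergent in a draw of 1000 templates was set against the other libraries of the same group, as the gap to the nearest library divided by the range of the group. In 4 of the 30 groups of values tested, 1 mouse stood apart by Dixon's criterion, where chance alone gives about 1 in 20, or 1.5. In day 7 blood of the mRBC-CTRL arm, mouse 4 was at 0.741% and the nearest library at 0.940%. In cured mice after EG7.OVA, mouse 7 was at 1.38% and the nearest at 0.928%. In cured mice after EL4, mouse 6 was at 0.540% and the nearest at 0.654%. In day 0 blood of the 2.5e8 arm, mouse 4 was at 0.922% and the nearest at 0.549%. The reason for these 4 values was not tested.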

How the results depend on the processing

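There were 435 alternative values of the comparisons and of the members' properties, V and J genes not counted. Among them, 394 kept their direction and their side of the threshold, 7 kept the direction but no longer passed, and 34 changed sign. All 34 were in comparisons that did not pass under the rule at 1000 templates. Of the 435, 339 belonged to the 16 comparisons, and 25 of these to the 1 that passed, with 22 the same and 3 no longer passing. The rest of the 339 belonged to comparisons that had not passed, so the total says little about robustness. Merging within 2 positions could not reach most near variants, since 85.5% of same-base pairs within 3 edits differed at more than 3 positions. Among the 16 V genes called, 3 changed sign with 2 positions required within the CDR3, 5 without rearrangements of 1 template and 2 with pairs of 1 V gene. Of the 12 J genes called, 2, 2 and 0 did. Calls that passed in both directions were TCRBV13-02 (13.1, then -7.32 within the CDR3 and -5.28 without 1-template rearrangements), TCRBV26-01 (-0.632, then 2.21 within the CDR3), TCRBJ01-03 (1.74, then -2.99 without 1-template rearrangements), and TCRBV12-01 and TCRBV12-02 (4.83 and 4.33, then -1.76 and -2.19 with pairs of 1 V gene). The cause of these changes was not tested. Differences below are in percentage points at 1000 templates unless stated.

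With 2 positions required within the CDR3, tumor minus day 7 blood was 0.0590 (exact sign-flip test, p = 0.324, adjusted 1). The tumor differences from mRBC-CTRL were -0.113 (1e9) and -0.116 (2.5e8), those of day 0 blood 0.0200 and 0.0132, and those of day 7 blood -0.0588 and -0.0808. Day 7 minus day 0 was -0.0666 in the 2.5e8 and -0.0842 in the 1e9 arm, the change around EL4 0.0134, that of naive mice around EG7.OVA -7.36e-05, and cured minus naive 0.00800 before and 0.0144 after EG7.OVA. Without rearrangements of 1 template, tumor minus blood was 0.471 (exact sign-flip test, adjusted p = 0.0938). In tumors 1e9 stood at -0.237 against mRBC-CTRL and -0.255 against 2.5e8. In blood the differences of 1e9 and 2.5e8 from mRBC-CTRL were 0.134 and 0.196 on day 0 and -0.448 and -0.470 on day 7, and day 7 minus day 0 was -0.237 and -0.372. Cured mice changed by -0.0106 around EG7.OVA and 0.245 around EL4, naive mice by -0.0394, and cured minus naive was 0.00714 before and 0.0360 after.

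As a percent of templates, 1e9 minus 2.5e8 in tumors was -2.21, and cured minus naive 0.0203 before and 0.872 after EG7.OVA. As codon-convergent pairs per 1e6 pairs, a measure chosen after seeing the data, these were -0.335 in tumors and 0.0999 after EG7.OVA, with -0.280 for day 7 minus day 0 in mRBC-CTRL, -0.0126 in naive mice and 6.25 for tumor minus blood (sign-flip permutation test, p = 0.130). In tumor libraries alone, members differed from the rest by 0.308 in the percent without N nucleotides and -0.870 in the percent with 1 template, and codon-convergent members by -6.28 in the latter, also chosen after seeing the data. Their difference in N nucleotides between tumor and blood was 0.467 nucleotides.

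Leaving out 1 mouse at a time changed the sign of 1e9 against mRBC-CTRL in day 0 blood, which ran from -0.0985 to 0.0275 and was above 0 without mRBC-CTRL mouse 3 or 1e9 mouse 5. Tumor minus blood ran from 1.498 to 1.76, and the change of cured mice around EG7.OVA from 0.000265 without mouse 7 to 0.170. A replicate block on the mouse number, which names different mice in different arms and pairs nothing, gave 1.30 for 1e9 and 0.972 for 2.5e8 against mRBC-CTRL in tumors (exact sign-flip test, p = 0.125 and 0.188), and changed no call. Without the pairing within mice, tumor minus blood was 1.65 (permutation test, p = 1.48e-06), and no call changed. Of the 560 changes within mice, the count was 417 when 10 templates were required, 388 at an adjusted p of 0.01 and 386 after thinning to equal depth. Codon-convergent CDR3s expected per draw of 1000 templates were few in tumors, which limits the precision there.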
